A study of Mus musculus with 2 samples.

Results

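Egr1, Egr2, Egr3, Egr4, Nr4a1, Nr4a2, Nr4a3, Npas4 and Arc are immediate early genes of neurons. Their open chromatin was read from DNase-seq libraries of left cerebral cortex, 1 from each of 2 mice. Both animals were females of the strain B6CASTF1/J, a cross of C57BL/6J with CAST/EiJ, at an age of 10 days, numbered separately in the labels but given 1 donor identifier. DNase I cuts accessible DNA, so a peak marks an open region and a footprint marks a short stretch that is protected from cutting. The 9 genes were taken by name out of 21938 protein-coding genes of GENCODE M21, not by a cutoff on a measured value. Earlier results of these data were known when they were chosen. The labels give no treatment, no second condition and nothing on what the animals saw or did before the tissue was taken. The 2 libraries form 1 group, so no comparison of conditions was possible and differences between the libraries have no test. The tissue is a mixture, so a smaller share of open cells and fewer cuts per open cell cannot be told apart.

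Immediate early genes are transcribed within minutes of synaptic activity, without the need for newly made protein. Calcium entry and the MAP kinase cascade act on factors already present on the DNA: serum response factor (SRF) with its Ets partners at the CArG box, CREB at the cAMP response element (CRE), and MEF2. Egr proteins are zinc finger activators and repressors, Nr4a proteins are orphan nuclear receptors, and Npas4 is a neuronal bHLH-PAS factor that shapes inhibitory synapses. Arc is the exception among the 9, as it encodes a synaptic protein that moves AMPA receptors off the membrane. At the age of 10 days the mouse cortex is still forming synapses and the eyes are about to open.

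Of the regions used below, 9 are printed here: 5 stretches that end at a start site and the strongest distal peaks of 4 genes. The 5 stretches overlap peaks of both libraries but do not all lie wholly inside them. All 9 regions are written 5′ to 3′ on the strand of the gene, from the GRCm38.p6 reference (mm10). The CAST/EiJ copy of these mice may differ from it. An entry for 6 of the 9 genes was found in the RefSeq promoter table (GRCm38.p6), from which the stretches of Egr2, Egr4 and Nr4a1 were matched. Capitals mark matches to the CArG box, to the CRE TGACGTCA or its core TGACG on either strand (CGTCA on the strand shown when it lies on the other), to the Ets core CCGGAA and to the Egr site GCGTGGGCG or GCGGGGGCG.
Egr2, 250 bases before the inner start, chr10:67537619-67537868 (+ strand): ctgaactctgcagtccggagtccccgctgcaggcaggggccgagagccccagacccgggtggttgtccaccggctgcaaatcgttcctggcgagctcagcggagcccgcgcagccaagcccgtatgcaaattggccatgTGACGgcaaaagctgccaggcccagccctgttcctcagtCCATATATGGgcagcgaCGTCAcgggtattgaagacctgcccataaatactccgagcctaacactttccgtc
Egr4, 250 bases before its only start, chr6:85513590-85513839 (- strand): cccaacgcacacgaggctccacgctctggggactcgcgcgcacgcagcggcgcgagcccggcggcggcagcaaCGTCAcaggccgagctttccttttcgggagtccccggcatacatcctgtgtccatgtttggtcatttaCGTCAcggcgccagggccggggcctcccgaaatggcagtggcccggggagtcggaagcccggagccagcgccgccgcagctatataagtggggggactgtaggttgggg
Nr4a1, 250 bases before the inner start, chr15:101266596-101266845 (+ strand): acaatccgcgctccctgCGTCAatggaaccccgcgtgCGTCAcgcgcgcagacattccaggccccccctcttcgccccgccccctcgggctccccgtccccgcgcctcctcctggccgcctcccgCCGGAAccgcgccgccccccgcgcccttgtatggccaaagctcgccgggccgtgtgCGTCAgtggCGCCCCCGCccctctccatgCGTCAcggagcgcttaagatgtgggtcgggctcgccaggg
Nr4a2, 120 bases before the inner start, chr2:57115039-57115158 (- strand): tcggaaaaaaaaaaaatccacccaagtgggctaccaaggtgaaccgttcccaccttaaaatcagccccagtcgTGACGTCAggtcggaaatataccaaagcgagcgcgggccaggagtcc
Nr4a3, 192 bases before the 5′ end, chr4:48044961-48045152 (+ strand): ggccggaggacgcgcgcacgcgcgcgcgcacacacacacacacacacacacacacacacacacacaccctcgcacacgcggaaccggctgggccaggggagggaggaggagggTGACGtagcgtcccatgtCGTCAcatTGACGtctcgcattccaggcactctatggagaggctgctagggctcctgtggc
Arc, distal peak, chr15:74679168-74679367 (- strand): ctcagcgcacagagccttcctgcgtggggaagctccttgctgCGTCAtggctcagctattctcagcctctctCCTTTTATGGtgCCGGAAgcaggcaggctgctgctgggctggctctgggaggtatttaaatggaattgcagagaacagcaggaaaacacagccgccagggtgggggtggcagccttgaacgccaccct
Npas4, distal peak, chr19:5001821-5002060 (- strand): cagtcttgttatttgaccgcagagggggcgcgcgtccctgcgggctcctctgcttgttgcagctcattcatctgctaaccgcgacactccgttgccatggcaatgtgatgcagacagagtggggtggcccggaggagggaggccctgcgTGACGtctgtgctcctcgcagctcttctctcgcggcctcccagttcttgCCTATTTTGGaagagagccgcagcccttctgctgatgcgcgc
Nr4a3, distal peak, chr4:48043341-48043600 (+ strand): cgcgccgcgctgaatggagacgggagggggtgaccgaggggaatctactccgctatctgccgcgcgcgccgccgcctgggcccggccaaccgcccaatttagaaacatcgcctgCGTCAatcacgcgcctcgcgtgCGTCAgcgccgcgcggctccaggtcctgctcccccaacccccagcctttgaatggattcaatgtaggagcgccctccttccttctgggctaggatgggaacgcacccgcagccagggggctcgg
Nr4a1, distal peak, chr15:101246281-101246560 (+ strand): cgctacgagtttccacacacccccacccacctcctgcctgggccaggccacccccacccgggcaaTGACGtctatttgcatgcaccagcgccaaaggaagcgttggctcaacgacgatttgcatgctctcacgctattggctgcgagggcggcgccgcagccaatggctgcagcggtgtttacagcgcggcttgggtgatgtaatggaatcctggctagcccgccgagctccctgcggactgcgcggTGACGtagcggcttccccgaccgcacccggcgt

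The promoters of all 9 genes were open in both animals when every annotated start site was considered. A gene counted as open when a peak of the stricter list of each library lay within 500 bp of a start. Stricter here names the smaller of the 2 lists of a library, as the sources do not say how they differ. Across all protein-coding genes 55.2% (12105 of 21938) met the same rule. At the 5′ end of the gene record, the most upstream annotated start, 7 of the 9 were open, against a background of 49.5% (10864 genes). Egr2 and Nr4a2 were the 2 without a peak there, and both were open at an inner start. With the larger peak lists 8 of the 9 had a peak at the 5′ end, against 55.1% of coding genes. At the start of the RefSeq Select transcript, 8 of the 9 were open in the stricter lists, against 53.7%, and Egr2 was the exception. Of all coding genes open at some start, 10.3% (1241) lacked a peak at the 5′ end. The 9 genes have 29 distinct start positions, from 1 in Egr4 to 6 in Egr2, and the median coding gene has 3. None of these starts had a start of another gene within 500 bp. In the 1001 bp around the 5′ end, G and C made up from 55.6% (Egr1) to 71.2% (Nr4a2) of the bases, all above the coding median of 54.7%. The ratio of observed to expected CpG ran from 0.451 at Npas4 to 0.860 at Nr4a2, with a coding median of 0.552. The 5′ end richest in CpG, that of Nr4a2, was thus 1 of the 2 without a stricter peak.

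Signal, the value of each peak as the authors deposited it and scaled by library, is given below as replicate 1 and then replicate 2. Among the open coding promoters the median of the mean signal of both libraries was 2.89 at any start, and among the 9 genes it was 3.11. The order by mean was Egr1 5.41 ± 1.74 (SD, n = 2), Arc 4.75 ± 2.86, Egr4 3.40 ± 1.44, Egr3 3.26 ± 0.789, Nr4a1 3.11 ± 1.41, Egr2 2.86 ± 1.07, Nr4a3 2.60 ± 0.572, Npas4 1.74 ± 0.588 and Nr4a2 1.13 ± 0.503. The values of the libraries overlapped for each pair of neighbours in that order, except for Nr4a3 (2.20 and 3.01) and Npas4 (1.33 and 2.16). Replicate 2 was higher at all 9 genes, so this overlap and the SDs include the difference between the libraries. Within each library Arc (2.73 and 6.78) was above Egr4 (2.39 and 4.42), Nr4a1 above Egr2, Nr4a3 above Npas4 and Npas4 above Nr4a2. In replicate 1, however, Nr4a1 and Egr2 were nearly equal, with 2.11 at Nr4a1 and 2.10 at Egr2. The other neighbours, such as Egr4 and Egr3 (2.71 and 3.82), changed order between the libraries. The ends lay apart: Egr1 had 4.18 and 6.63, Nr4a2 0.775 and 1.49. Of the open coding promoters 18.2% had a higher mean than Egr1 and 86.5% a higher mean than Nr4a2.

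**Figure D1:**
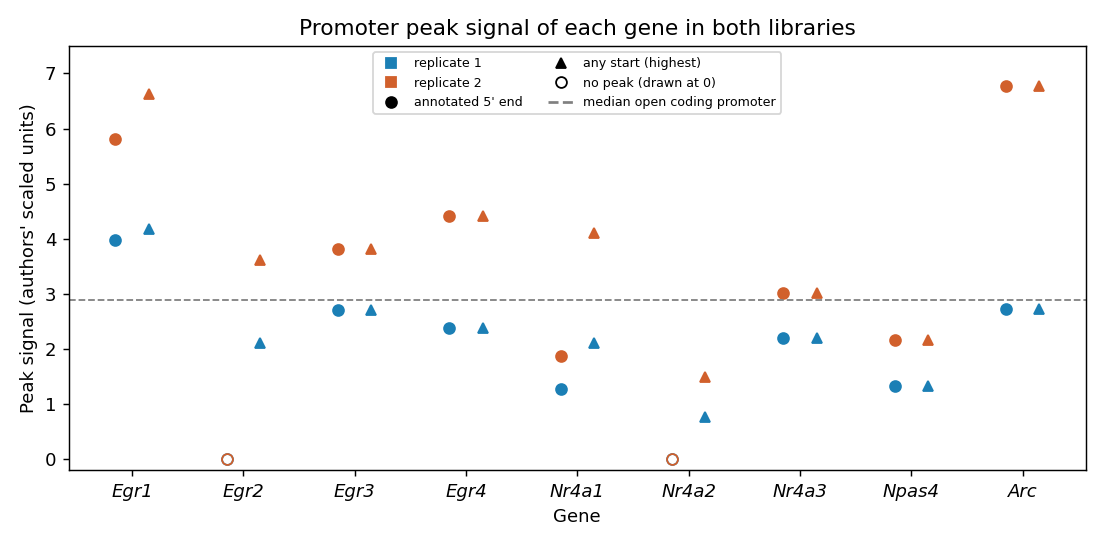
Peak signal (authors' scaled units, y axis) of each gene (x axis) in replicate 1 (blue) and replicate 2 (orange), at the annotated 5′ end (circles) and at the start with the highest peak (triangles), with open circles at 0 for no peak and a dashed line at the median open coding promoter (2.89). Egr2 and Nr4a2 have no peak at the 5′ end in either library, Nr4a1 and Egr1 are higher at an inner start, and where peaks were called the orange points lie above the blue ones.

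Egr1 (Zif268) is the zinc finger factor most widely used as a marker of activated neurons. Its 5′ end (mm10, chromosome 18, 34859823 to 34864984, + strand) carried peaks of 3.97 and 5.81, which lie in an annotated UTR of the gene. A second pair of peaks, 4.18 and 6.63, spanned the start of the RefSeq Select transcript, 1384 bp further in. Both libraries called that inner peak at the same bases, from 1178 to 1417 bp after the 5′ end. The inner start had 5 CArG box matches within 500 bp on its upstream side, more than any other start of the 9 genes, and 2 of them, 105 to 74 bp before it, lay in the peaks of both libraries. None of the 5 lay in a footprint of either library. A core CRE 66 to 62 bp before the same start lay in a footprint of both.

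Egr2 (Krox20), the paralog required for hindbrain segments and myelinating Schwann cells, had no stricter peak at its 5′ end (chromosome 10, 67535475 to 67542188, + strand). Within 500 bp of that position the larger lists had peaks in replicate 2 alone, the higher of 0.424. The RefSeq Select start lies 24 bp from it and was likewise without a stricter peak. The signal sat 2394 bp further in, at the start shared within 1 bp by 3 transcripts. There, in an intron of the longest transcripts, 2 separate peaks were called in each library, with 2.10 and 3.62 at the upstream one and 1.87 and 2.36 at the one that reaches the start. Each of these peaks held a CArG box. The near one, 72 to 63 bp before the start, stands in the Egr2 sequence above between 2 core CREs, of which the one 55 to 51 bp before the start lay in a footprint of replicate 1 only.

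Egr3, which acts in synaptic plasticity and muscle spindle formation, had its promoter peak ahead of the gene rather than over the start. The peaks of 2.71 and 3.82 ran from 442 or 422 to 223 bp before the 5′ end (chromosome 14, 70077203 to 70082614, + strand). The peak held a CArG box 360 to 351 bp before the 5′ end, with a core CRE on each side. The core CRE at 394 to 390 bp lay in a footprint of both libraries and the CArG box in neither. Egr3 was the member of median rank by signal at the 5′ end (rank 4814 of 10864 open genes, 3.26). Its neighbours in rank included Glud1 and Nt5dc3 just above (both 3.26) and 1190002N15Rik just below (3.26), which places the Egr3 promoter near the middle of all open promoters.

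Egr4, the Egr gene with the fewest transcripts, has 1 start and was open right at it (chromosome 6, 85511121 to 85513589, − strand). Its peaks, 2.39 and 4.42, ended 8 bp inside the gene and reached 231 and 271 bp upstream. The Egr4 stretch above holds 2 core CREs. The one at 109 to 105 bp before the start lay in a footprint of both libraries and the one at 177 to 173 bp in a footprint of replicate 1. All 4 footprints of replicate 1 near this start overlapped one of replicate 2.

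Nr4a1 (Nur77) had an open 5′ end (chromosome 15, 101254269 to 101274795, + strand) with peaks of 1.28 and 1.88. A higher pair, 2.11 and 4.11, stood at the RefSeq Select start 12577 bp further in, in an intron of the longest transcript. That inner stretch holds 4 core CREs, an Ets core and an Egr site. The Egr site, 60 to 52 bp before the start, lay in a footprint of both libraries, the only 1 of 5 Egr site matches near the starts of the 9 genes that did. An Sp box (GGGCGG) overlaps it, so the letters alone do not say which factor would sit there. MEF2 matches, found at no other member, stood at 3 places of Nr4a1: 195 to 186 bp before the 5′ end and 299 to 290 and 265 to 256 bp before the inner start.

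Nr4a2 (Nurr1), needed for midbrain dopamine neurons and used as a marker of claustrum and deep cortical cells, was the least open of the 9. At its 5′ end (chromosome 2, 57106830 to 57124003, − strand) the larger lists alone had peaks, of 0.464 and 0.667. Its highest pair, 0.775 and 1.49, lay at the RefSeq Select start 8965 bp further in. Of the 7 footprints in each library near its starts, 1 of replicate 1 overlapped one of replicate 2. The inner stretch holds the only full CRE, TGACGTCA, within 500 bp of any start of the 9 genes, 47 to 40 bp before the start. It lay within the peak of replicate 1, was cut by the upstream edge of that of replicate 2, and lay in a footprint of neither. Of all coding genes 4.84% have a full CRE within 500 bp of some start.

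Nr4a3 (NOR-1) had peaks of 2.20 and 3.01 that reach 47 bp past its 5′ end (chromosome 4, 48045153 to 48086447, + strand). Its stretch above has a run of CA repeats and then holds 3 core CREs within 31 bases. The first of them, 79 to 75 bp before the 5′ end, lay in a footprint of both libraries, the second in a footprint of replicate 1 and the third in none. The starts of Nr4a3 at 3961 and 6095 bp further in had no peak in either library.

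Npas4, which unlike the others is induced by calcium entry with little response to growth factors, was open inside the gene (chromosome 19, 4984355 to 4990316, − strand). Its peaks of 1.33 and 2.16 lay between 76 and 475 bp after the 5′ end, over the RefSeq Select start at 345 bp. Only 2 of its 8 footprints in replicate 1 overlapped one of replicate 2. With the window narrowed to 250 bp the peak of replicate 1 no longer counted at the 5′ end.

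Arc was open at its start (chromosome 15, 74669083 to 74672570, − strand), with 2.73 in replicate 1 and 6.78 in replicate 2. The peak of replicate 1 ran from 210 to 31 bp upstream, and that of replicate 2 from 190 bp upstream to 69 bp inside the gene. It had no CArG box, CRE or core CRE within 500 bp of its start, the only member of the 9 without a core CRE at any start. An Ets core 138 to 143 bp inside the gene lay outside the peaks of both libraries. A CCAAT box 78 to 74 bp before the start lay in the peaks of both but in no footprint. An Sp box 109 to 104 bp before the start lay in a footprint of both. The distal peak of Arc 6697 bp upstream held a CArG box and a core CRE.

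**Figure D2:**
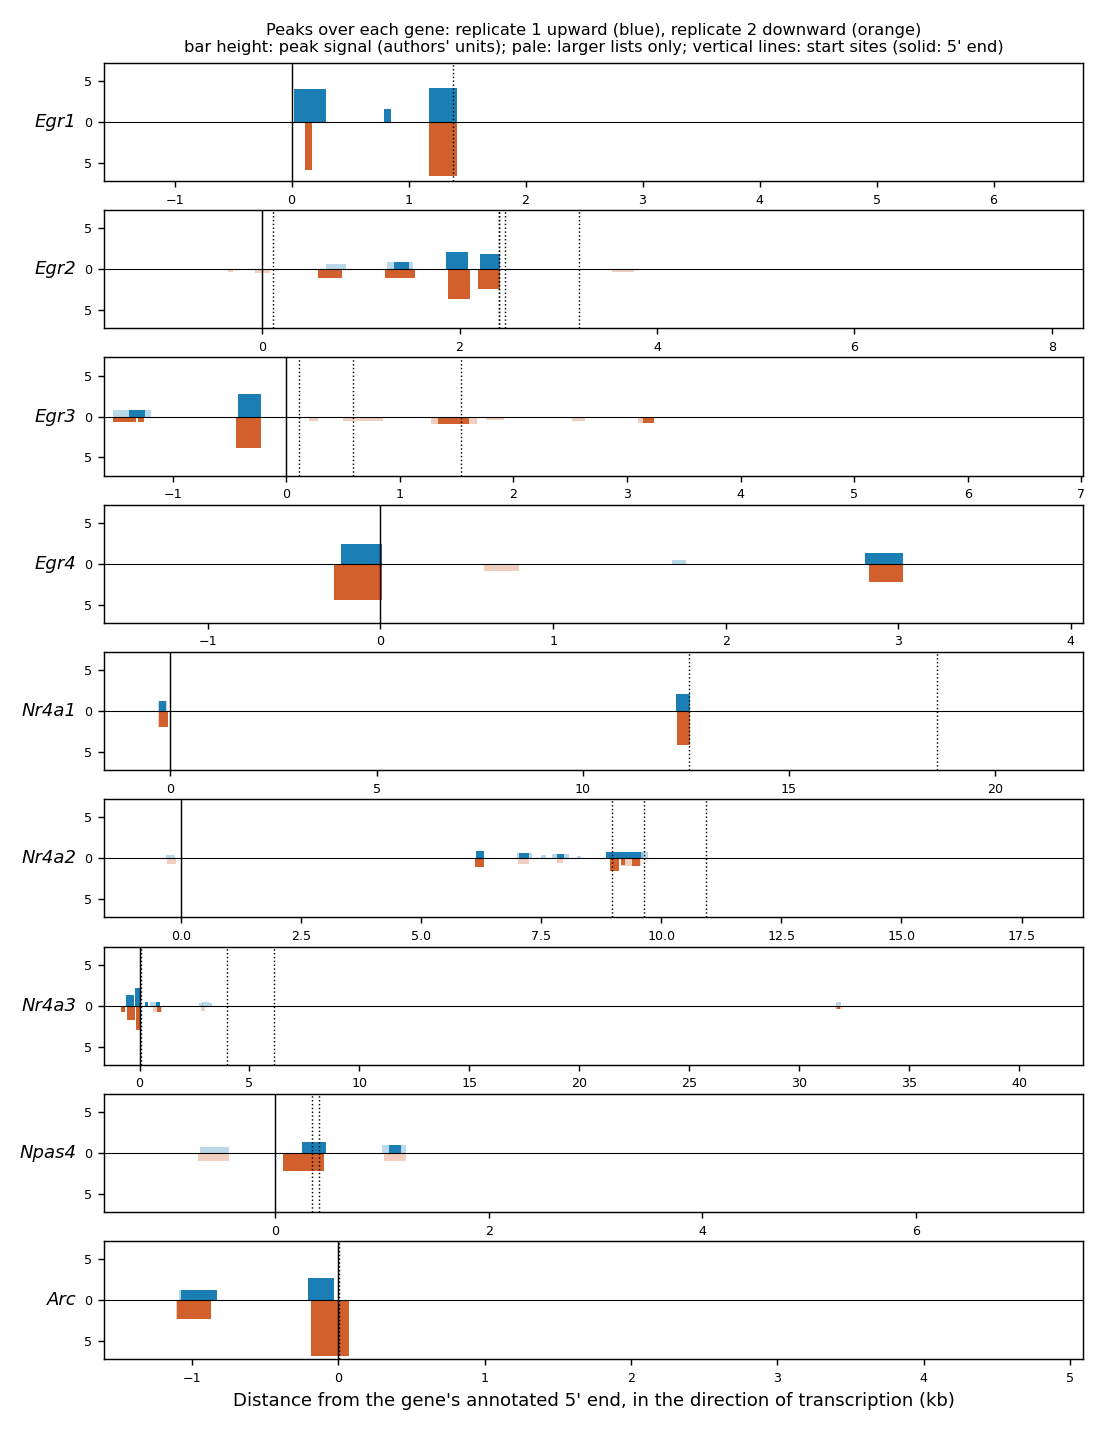
Peaks over each gene against distance from its annotated 5′ end in the direction of transcription (kb, x axis), with bar height the peak signal (authors' units) of replicate 1 upward and replicate 2 downward, pale bars for peaks of the larger lists only, a solid line at the 5′ end and dotted lines at other starts. The highest promoter peaks of Egr2, Nr4a2 and Nr4a1 stand near inner starts, and the highest of Egr3 stands ahead of the 5′ end.

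Replicate 2 was higher at all 9 genes, as it was at 97.3% of the open coding promoters. At any start, the median log2 of replicate 2 over replicate 1 was 0.78 for the 9 genes and 0.56 for all open coding promoters. Of the 9, 7 were above the latter. Peaks at the 5′ end gave a log2 of 0.55 for both Egr1 and Nr4a1, exceeded by 51.8% and 50.9% of promoters open there. There Egr3 and Nr4a3 were exceeded by 60.2% and 66.6%, and Egr4, Npas4 and Arc by 10.1%, 28.1% and 0.313%. The open ones among the other immediate early and early genes described below had a median of 0.51 at any start. Arc differed most, by 2.48-fold (log2 1.31), and only 0.363% of the open coding promoters had a larger log2. Replicate 2 was above 2 times replicate 1 at 4.35% of the open coding promoters and, among the 9, at Arc alone. Nr4a1 followed with 1.95-fold, Nr4a2 with 1.92-fold and Egr4 with 1.85-fold. Nr4a3 with 1.37-fold and Egr3 with 1.41-fold lay below the coding median.

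Signals of each library were whole multiples of a step (0.00692 and 0.00758), so the ratio was also taken in steps, which drops the authors' scale. In steps the median log2 was 0.65 for the 9 genes and 0.43 for all open coding promoters, and Arc had 395 and 894 steps (log2 1.18). The distal peaks of the 9 genes had a median log2 of 0.42, beside 0.29 over all distal peaks. With 1 animal per library, an animal and a library cannot be told apart, and the labels give no state of activity that could be set beside these values.

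**Figure D3:**
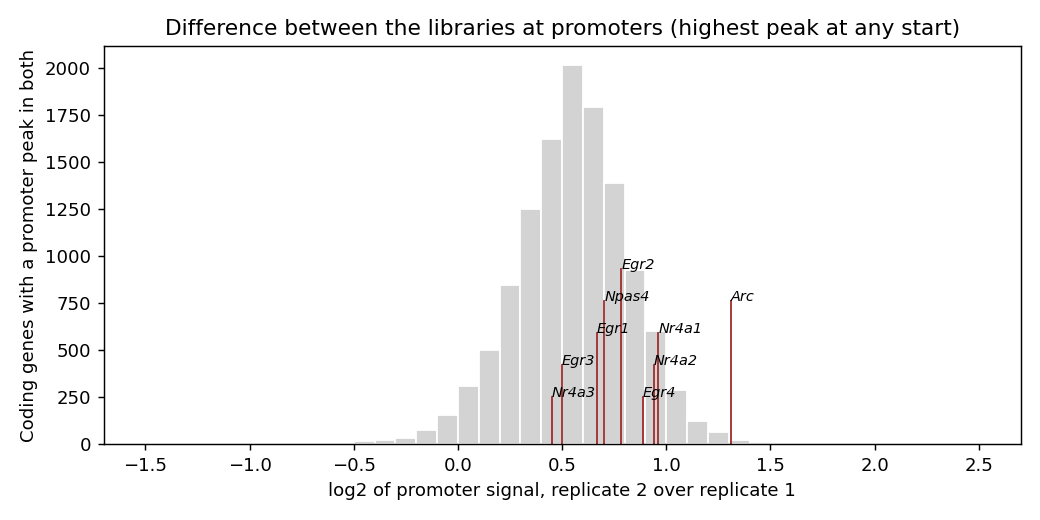
Histogram of the log2 of promoter signal in replicate 2 over replicate 1 (x axis) for the coding genes with a peak in both libraries (y axis, number of genes), with red lines at the 9 genes at heights chosen only to keep the names apart. Arc at 1.31 stands in the right tail, and Nr4a3 and Egr3 lie left of the median of 0.56.

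Footprints found in both libraries were present within 500 bp of the 5′ end in 7 of the 9 genes, beside 47.8% of coding genes, and within 500 bp of some start in all 9, beside 54.0%. Egr2 and Nr4a2 were again the 2 without one at the 5′ end. In total 58 footprints of replicate 1 and 78 of replicate 2 lay near the starts. They were counted whether or not they lay in a stricter peak, and those near the 5′ end of Nr4a2, for example, did not. Of the 58, 37 overlapped a footprint of the other library, and of the 78, 40 did. The same share over all coding genes was not taken. All footprints of replicate 1 repeated at Egr4 (4 of 4) and Egr3 (3 of 3), followed by Egr1 (12 of 13) and Nr4a1 (6 of 7). Nr4a2 (1 of 7), Npas4 (2 of 8) and Nr4a3 (2 of 7) repeated least.

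Near the start sites no CArG box match lay in a footprint. Near the starts of Egr1, Egr2 and Egr3 lay 8 CArG matches, where 10.8% of coding genes hold one near some start. Of these 8, 5 overlapped peaks of both libraries and 0 in a footprint of either. Core CREs were near a start in 8 of the 9 genes, as in 63.4% of coding genes, with 34 matches, of which 21 overlapped peaks of both libraries, 13 in a footprint of at least 1 library and 4 in footprints of both. These 4 belonged to Egr1, Egr3, Egr4 and Nr4a3. Of 42 Sp box matches, 13 lay in a footprint of at least 1 library and 5 in footprints of both. None of 13 Npas4-type or 3 MEF2 matches lay in a footprint, and 1 of 31 CCAAT matches did. The share of matches in footprints over all coding genes was not taken. A longer motif needs more bases in a footprint to count, and differences between motifs were not tested. No match to the Nr4a response element AAAGGTCA or to CTCF was found near any start, where 10.8% and 2.37% of coding genes have one. Of the more common motifs, the Sp box and CCAAT were each near a start in 8 of the 9 genes (68.1% and 87.7% of coding genes), the Npas4-type TCGTG in 8 (65.9%) and the Ets core in 6 (46.0%). The Egr site was near a start in 4 (12.3%), TATAAA in 3 (58.8%), AP-1 (TGANTCA) in 1 (41.0%) and MEF2 in 1 (3.64%).

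Away from the start sites, 28 distal peaks found in both libraries lay within 50 kb of the 9 genes and more than 1 kb from every annotated start. The median was 3 per gene and 2 over all coding genes, and the range ran from 1 at Egr2 to 7 at Egr1. Peaks were set to a gene by distance alone. The Egr1 peak 9952 bp upstream lay nearer to the start of Reep2. Those 40757 and 41543 bp after the 5′ end of Egr1 lay nearer to the start of Etf1. These peaks were stronger than the general run: their median mean signal was 1.43, against 0.897 for all 31956 distal peaks. At 5 genes, 10 of the 28 stood in the strongest 10% of all distal peaks, which begins at 1.84. Upstream of the gene lay 21 of the 28, and 3 lay in a gene body, 1 of them that of Nr4a2. The share upstream over all coding genes was not taken.

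At 4 of the 9 genes the strongest distal peak was higher than the promoter, which held for 22.4% of the open coding genes. Npas4 had the strongest of all, 4.12 and 6.23 at 11624 bp upstream, 2.97 times the mean of its promoter. It was joined by 2 more in the top 10%, 1.89 and 2.57 at 11994 bp and 2.59 and 2.88 at 3924 bp upstream. Npas4 was the nearest coding gene to these 3 peaks. A start of a non-coding gene lay nearer, at 7445, 7075 and 1127 bp from them. Nr4a1 had 3.67 and 6.03 at 7849 bp upstream and 2.45 and 3.74 at 13399 bp upstream. Nr4a3 had 3.51 and 5.56 at 1683 bp upstream, and 1.13 and 1.87 at 2203 bp. Egr3 had 3.02 and 4.64 at 2233 bp upstream, and its next strongest, 0.996 and 1.23, lay 36231 bp upstream. The latter was in the bodies of Pebp4 and Gm33524, and a start of another gene lay nearer, at 16395 bp. The strongest distal peaks of Nr4a3 and Egr3 are close enough to the gene to be called part of a wide promoter under another rule. Of the 28 distal peaks, 6 lay within 3 kb of the 5′ end.

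The other 5 genes were highest at the promoter by the mean of both libraries. Egr1 had 2.77 and 3.91 at 27717 bp after its 5′ end, beyond the gene, 1.81 and 3.24 at 4376 bp upstream and 1.87 and 2.24 at 9522 bp upstream. Egr4 had 1.31 and 2.24 just past the end of the gene, 2919 bp after its start, and 0.733 and 1.02 at 31097 bp upstream. Arc had 1.30 and 1.96 at 6697 bp upstream and 0.865 and 1.30 at 29466 bp upstream, the latter nearer to the start of Jrk. Nr4a2 had 0.872 and 1.05 in its own intron, 6223 bp after the 5′ end, which in replicate 1 was above its promoter (0.775), and 0.505 and 0.614 at 22270 bp upstream. The single distal peak of Egr2, 1.00 and 1.37, lay 43095 bp upstream. A start of another gene was nearer to it, at 5327 bp, as was the case for the upstream peak of Egr4, at 15234 bp.

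**Figure D4:**
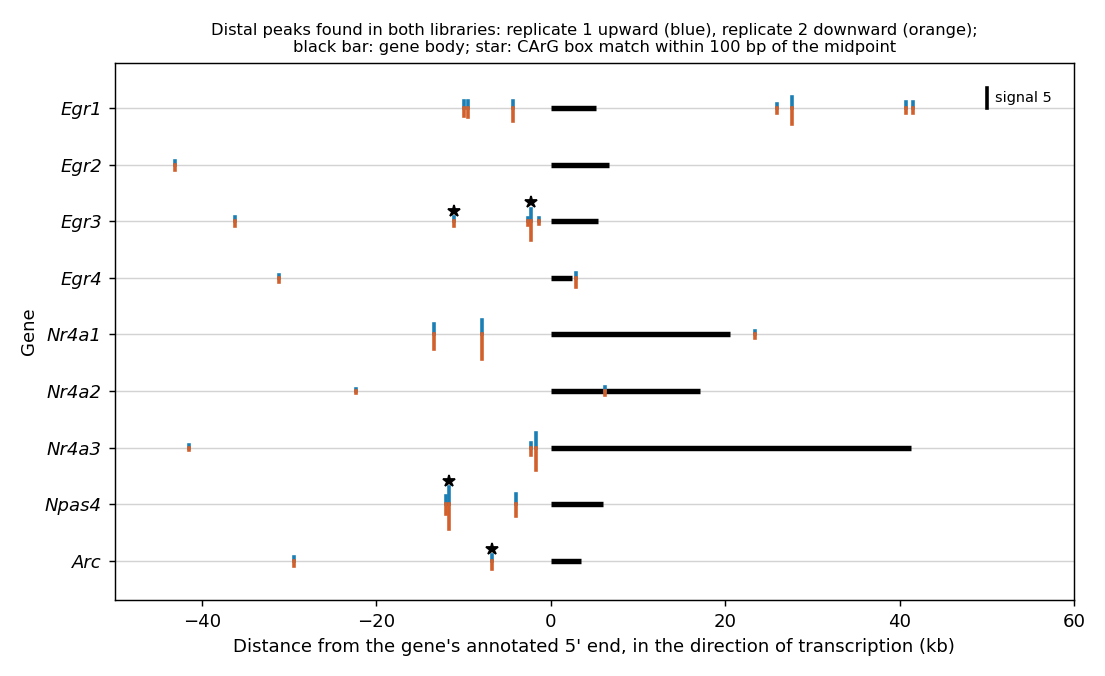
Distal peaks found in both libraries, by distance of the midpoint from the annotated 5′ end in the direction of transcription (kb, x axis), one row per gene, with line length the peak signal of replicate 1 (upward) and replicate 2 (downward) and a scale line for a signal of 5. Black bars are gene bodies and stars mark the 4 peaks with a CArG box, which belong to Egr3 (2 peaks), Npas4 and Arc.

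CArG boxes stood beside core CREs in the distal peaks. In the 200 bp around the midpoint, 4 of the 28 peaks (14.3%) held a CArG box, beside 1.10% of all distal peaks and 1.19% of the strongest 10%. Each of the 4 also held a core CRE. Both letters together were found in 36 of the 31956 distal peaks (0.113%) and in 0.344% of the strongest 10%. Core CREs, with or without a CArG box, were in 11 of the 28, beside 9.22% of all and 14.6% of the strongest 10%. The peaks of the 9 genes were also richer in G and C, with a median of 54.8% beside 49.5% over all and 53.0% in the strongest 10%, and the Sp box was likewise more frequent (9 of 28, beside 7.58% and 17.5%), as was CCAAT (11 of 28, beside 24.6% and 25.6%) and the Ets core (3 of 28, beside 3.59% and 6.51%). The part of base composition in the share of core CREs was not tested.

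**Figure D5:**
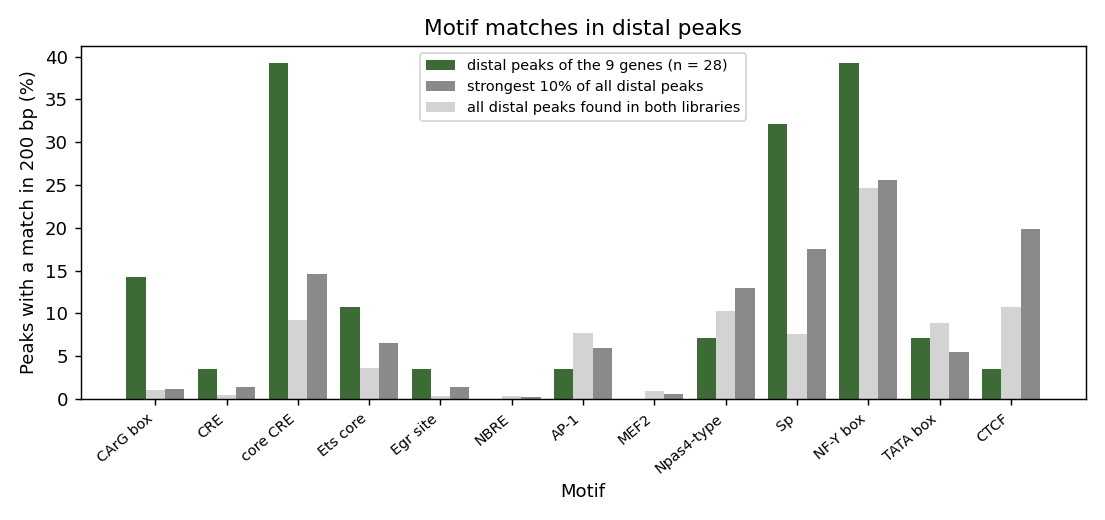
Share of distal peaks (%, y axis) with a match to each of 13 motifs (x axis) in the 200 bp around the midpoint, for the 28 peaks of the 9 genes (green), all 31956 distal peaks (light grey) and the strongest 10% of those (dark grey), where NF-Y box stands for CCAAT. The green bars of the CArG box (4 peaks), the full CRE (1), the core CRE (11), the Ets core (3), the Egr site (1), the Sp box (9) and CCAAT (11) stand above both grey bars.

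The Arc peak, printed above, lies between genes at 6797 to 6598 bp upstream of Arc. Its core CRE, CArG box and Ets core fall within 48 bases, and 2 bases separate the CArG box from the Ets core. The synaptic activity-responsive element of Arc is known as an upstream enhancer with sites for CREB, MEF2 and SRF. Whether this peak is that element was not tested, and no match to the MEF2 motif searched lay in it. The Ets core was in a footprint of replicate 2, and the other matches were in none.

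The Npas4 peak had its core CRE and CArG box within 59 bases, both outside the footprints, although 52 of its 240 bases in replicate 1 and 83 in replicate 2 were covered by footprints. The Nr4a1 and Nr4a3 peaks had no CArG box. Both core CREs of the Nr4a1 peak, and the second of the Nr4a3 peak, lay in footprints of both libraries.

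Genes that act before or beside the 9 were read by the same rule, a peak of both libraries at any start (55.2% of coding genes). Of 21 inputs (SRF and its cofactors, CREB and its coactivators, MEF2 and kinases) 19 were open. Mrtfa, the actin-regulated SRF cofactor, had the highest signal at the 5′ end, 7.71 and 11.7, followed by Creb1 with 5.47 and 7.78. With every start counted, Rps6ka5, a kinase that acts on CREB, stood between them (7.38 and 10.9). Elk3, an Ets partner of SRF, had no stricter peak in either library, and Camk4, a nuclear kinase that acts on CREB, had one in replicate 2 alone (1.02). Of 7 partners and corepressors 6 were open, led at the 5′ end by Rxrb (4.60 and 5.98), a retinoid receptor that pairs with Nr4a proteins, and Arnt (2.21 and 3.35), a bHLH-PAS partner. Nab2, a corepressor that binds Egr proteins, had a stricter peak in replicate 2 alone (1.87) and was in both larger lists.

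Of 33 other immediate early and early genes 32 were open, led at the 5′ end by Jun (9.64 and 13.4) and the clock gene Per1 (7.93 and 14.1). Ier3 was the exception, with a stricter peak in replicate 1 alone (1.05). The median of the mean signal of the open ones was 4.26, below the means of Egr1 and Arc and above those of the other 7 genes. Later targets of the activity program, such as secreted peptides and synaptic proteins, were open in 7 of 14. At the 5′ end Syt4 (1.53 and 2.56) and Scg2 (1.82 and 2.20) were highest, and at any start Vgf (3.44 and 5.65) was.

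Marker genes of the cells in cortex were open at some start in 4 of 8 for excitatory neurons, 1 of 6 for interneurons, 4 of 6 for astrocytes, 3 of 6 for the oligodendrocyte lineage, 2 of 6 for microglia and 0 of 6 for endothelium. Induction of the 9 genes in these cell types was not measured. The part of each type in the peaks of the 9 genes was not tested.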

How the data were processed

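DNase-seq libraries of the left cerebral cortex of 2 animals were used, 1 group of 2 biological replicates per the labels. Per the labels and the descriptions deposited with the files, the authors made 2 peak lists, footprints and a list of cut-rate false discovery rates from each library's own alignments on mm10. For the aligner, the callers and their thresholds, names and versions are not given in the sources used here. Signal, as deposited, is 1 value per peak scaled by library. The deposited p-value of footprints is 0.01 throughout, and the deposited false discovery rates stay below 0.05 and were not used for any result. The depth in reads is unknown.

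The smaller peak lists (60071 and 70563 peaks) served as the stricter ones and the larger (109563 and 121943) as an alternative. The sources do not state how the lists differ, and the smaller was not wholly contained in the larger. A replicate 1 peak of Egr1 (1.52), 794 to 851 bp after the 5′ end, stood in the smaller list alone. Signals were whole multiples of a step (100% within 0.01 of a whole number). Genes and starts came from GENCODE M21 on GRCm38.p6, on chromosomes 1 to 19, X and Y. The signal of a gene was its highest peak within 500 bp of a start, taken in each library on its own. A peak or footprint was shared when an interval of replicate 1 overlapped one of replicate 2 by at least 1 bp. A motif match counted as in a footprint when at least 50% of its bases were, and as overlapping a peak from 1 bp. Motifs (13) were searched on both strands: CArG box, CRE, core CRE, Ets core, Egr site, the Nr4a response element, AP-1, MEF2, the Npas4-type site, Sp box, the CCAAT and TATA boxes and CTCF. The core CRE is part of the CRE. The promoter sequences of Egr2, Egr4 and Nr4a1 came from RefSeq (GRCm38.p6), and all others from the genome.

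The 9 genes and all lists were chosen with earlier results of these data known. Named were the 9 genes, the 2 highest genes of each of 4 pathway lists and those without a peak where 3 or fewer, the neighbours in rank of the member of median rank, and the distal peaks in the top 10% or among the 2 strongest of a gene. Some items that these rules would name are not reported here. Vgf, Rps6ka5 and the near matches named for motifs were chosen after their values were seen. Python 3.11.15, pandas 2.3.3, numpy 2.4.6 and bedtools 2.31.1 were used, and the counting was tested on simulated peaks. Errors are standard deviations over n = 2, which join animal and technical variation.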

Additional observations from a re-analysis of the deposited data

How the results depend on the processing

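The count of 9 genes open at any start, and of 7 at the 5′ end, stayed within 1.5 times of those values under the larger lists, windows of 250 and 1000 bp, the stronger 50% of peaks, other choices of start and each library alone. The 28 distal peaks became 46 with the larger lists and 47 within 100 kb. The number of genes with a CArG box at the 5′ end, 1, became 0 within 250 bp, 4 within 1000 bp, 2 at the APPRIS principal start and 2 at the RefSeq Select start. Footprint counts use no peak list, so the larger lists gave no value for them. The RefSeq Select start was added after the data were seen. No paired analysis was possible because there is 1 group. With 2 libraries there is no test of any difference, footprints carry no rank, and peak signal depends on a scale that the sources used here do not give.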

Other observations

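The pairing of a CArG box with a core CRE in the 200 bp of a distal peak was followed through all 36 distal peaks that hold both. Within 50 kb of the 9 genes lay 4 of them, at Egr3 (2 peaks), Npas4 and Arc. Another 3 lay within 50 kb of the 33 other immediate early and early genes: near Fos, 11189 bp from its start with 2.12 and 3.59, near Btg2, 13990 bp from its start with 1.55 and 2.45, and near Dusp6, 1951 bp from its start with 1.58 and 2.12. Over all coding genes 92 (0.419%) had such a peak within 50 kb. This look at the other genes was made after the values of the 9 genes were seen.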
